A study of Danio rerio with 11 samples.

Results

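Cholesterol is built from acetyl-CoA in a long chain of enzymes that runs through mevalonate, squalene and lanosterol. Most animal cells adjust this chain through SREBP-2, a transcription factor that is released from the endoplasmic reticulum when sterols are scarce and switches on the genes of nearly every step. In the mouse, oocytes express several of these enzymes poorly and rely on the surrounding granulosa cells for cholesterol, and egg-laying vertebrates also import lipid from the blood as lipoproteins. Cholesterol is needed in oocytes for membranes, and its intermediates also feed the prenylation of proteins, dolichol and ubiquinone.

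The enzyme genes described here, 9 in number and chosen by name, were measured in oocytes of znf706 mutant and wild-type (WT) zebrafish, znf706 being a zinc finger gene. They are hmgcs1, hmgcra, idi1, fdft1, sqlea, lss, cyp51, sc5d and dhcr7, and make up 9 of the 31952 gene IDs analysed. All 9 were found, each under 1 ID. The study made 8 RNA-seq libraries, 2 biological replicates for each of 4 groups. These were mutant stage II, WT stage II, mutant stage I and WT stage I oocytes. The mutants carry the CRISPR/Cas9 allele tsu7d on both copies and bear the genotype label MZznf706, and the WT fish are described only as wild type. All came from females 3 months old. Ovaries were digested with a cell dissociation buffer and oocytes picked with a pipette, about 150 per stage II library and about 600 per stage I library. How many fish each library pooled, and whether the 2 replicates of a group came from separate fish, is not given in the sources used here, so p-values measure the spread between these libraries.

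Levels are FPKM, fragments scaled to transcript length and library size, which can be compared between genes because they are per length. The number of reads behind them is unknown. Relative depth, read from the steps between very low values and searched near equality alone, came to 0.893 to 1.04 with WT stage I replicate 1 set to 1. The median tested gene stood at 9.23 to 13.9 FPKM per library. Differences are given as log2(FPKM + 1) ± SE, a scale that understates the changes of low genes. Their adjusted p-values come from 1 limma fit over 13862 genes with Benjamini-Hochberg adjustment. A gene was tested if at least 2 libraries reached 1 FPKM, and called at an adjusted p under 0.05. The 5 comparisons of that fit share libraries with each other, so their results are not independent. The oocyte genes buc, zp3b, zp3a.1 and zar1 stood at 439 FPKM or more in every library, and the granulosa genes amh and fshr at 0.0414 FPKM or less. The 10 oocyte markers found summed to 5334 and 5052 FPKM in mutants and 7322 and 7007 FPKM in WT at stage II. At stage I the sum was 8510 and 8473 FPKM in mutants and 8594 and 9565 FPKM in WT. In mutants 3 were called higher and 4 lower at stage II, and 3 higher and 2 lower at stage I. All genes were called at 44.6% at stage II and 45.3% at stage I. The theca gene cyp17a1, which also serves steroid synthesis, stood between 34.0 and 104.6 FPKM. The 12 granulosa and theca markers summed to between 95.2 and 354.6 FPKM per library, and to between 41.3 and 108.4 FPKM without cyp11a1, the highest. The low levels of amh and fshr therefore do not stand for that list. Of the 12 markers 4 were tested, and these are described with the other markers below. The targeted znf706 (ENSDARG00000056307) was at 129 and 142 FPKM in mutants and 158 and 143 FPKM in WT at stage II, and at 181 and 147 FPKM in mutants and 232 and 238 FPKM in WT at stage I (log2 -0.52 ± 0.11, adjusted p = 0.0056). Which part of the transcript the allele alters is not given in the sources used here, so this level does not test the genotype labels.

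Squalene epoxidase and lanosterol synthase were higher in mutants at both stages, and squalene synthase was lower in mutants at stage II. The mutant and WT libraries of sqlea and of lss did not overlap. What share of all genes separates in this way was not worked out. Such separation is therefore a description, here and for the genes below. Of the 7 enzymes tested, 2 were called higher and 1 lower in mutants at stage II, where 44.6% of all tested genes were called (25.4% higher, 19.2% lower). At stage I 2 were called higher and 1 lower as well, against 45.3% of all genes (18.4% higher, 26.9% lower). At both stages 3 of 7 is close to the share called in the whole table. The counts include sqlea, which passed the filter on low values through its mutant libraries alone. They are therefore a description. The median log2 difference of the 7 was -0.06 at stage II and -0.07 at stage I, against 0.07 and -0.08 for all tested genes. The enzymes hmgcra and cyp51 did not pass the filter on low values and entered no test.

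**Figure D1:**
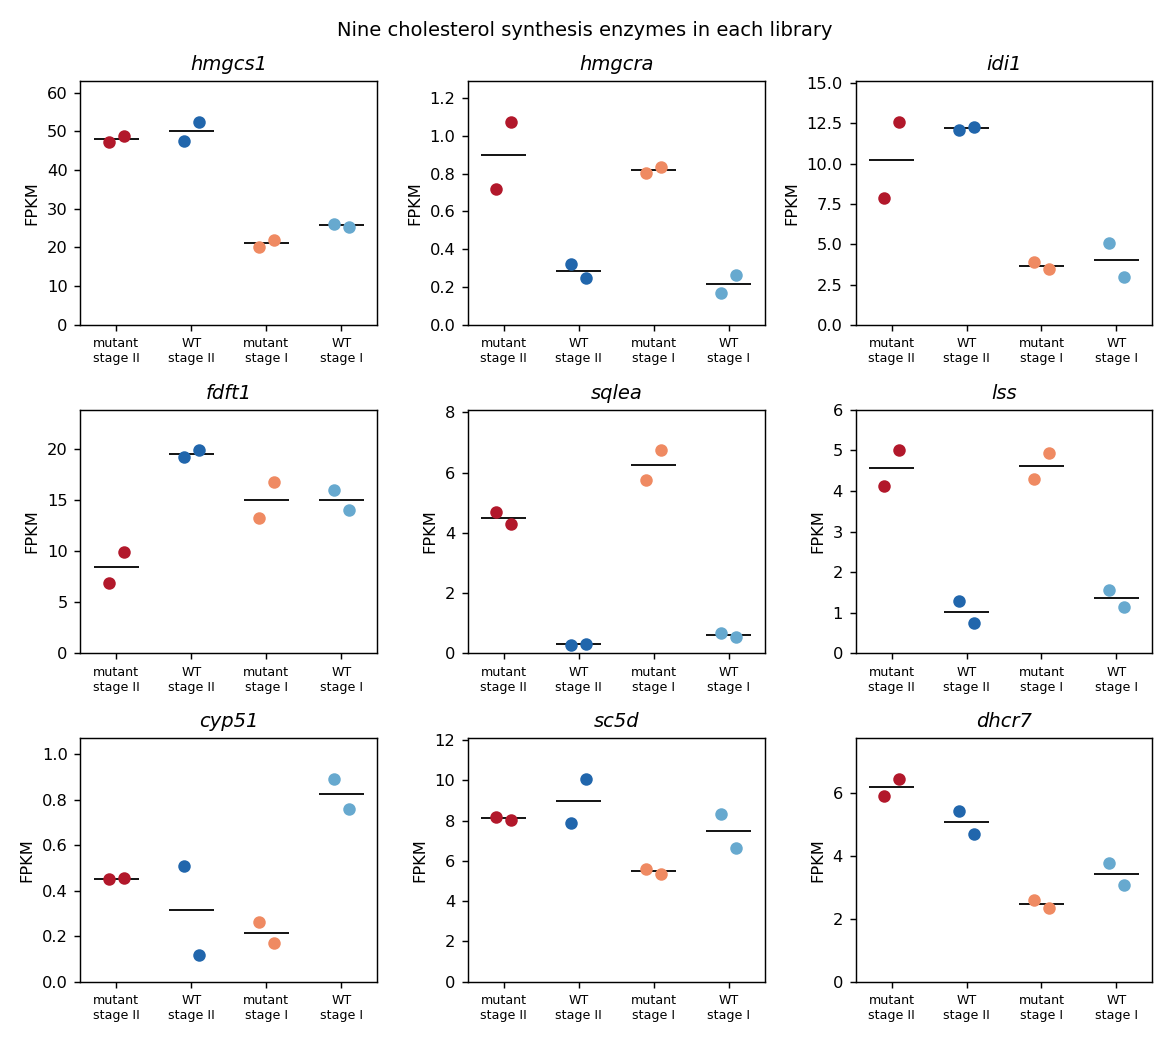
Level in FPKM (vertical axes, each from 0) of the 9 enzymes in the 8 libraries. Each point is a library, each bar the mean of 2, and groups run from mutant stage II to WT stage I. The 4 mutant libraries stand between 4.31 and 6.74 FPKM for sqlea, and the 4 WT libraries between 0.277 and 0.657 FPKM.

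The pathway begins with the synthase hmgcs1 and the reductase hmgcra. The enzyme encoded by hmgcs1 (ENSDARG00000103025) condenses acetyl groups into HMG-CoA. Its transcript was the most abundant of the 9 in every group. It stood at 47.3 and 48.7 FPKM in mutants and 47.5 and 52.5 FPKM in WT at stage II, and at 20.2 and 21.9 FPKM in mutants and 26.2 and 25.2 FPKM in WT at stage I. Both genotypes were about as high as each other at stage II, and the mutant libraries lay under both WT libraries at stage I. The stage I difference was small (log2 -0.28 ± 0.09, adjusted p = 0.031) and its call was lost in 8 of 16 other settings. Among these were both other scalings and leaving out either WT stage I library, mutant stage I replicate 1 or either mutant stage II library, with an adjusted p of up to 0.14. At stage II the difference was -0.06, with a 95% interval of -0.25 to 0.14 (adjusted p = 0.62).

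HMG-CoA reductase, the rate-limiting enzyme of the pathway, has 2 zebrafish genes. The member hmgcra (ENSDARG00000052734) stood at 0.720 and 1.08 FPKM in mutants and 0.324 and 0.246 FPKM in WT at stage II, and at 0.806 and 0.836 FPKM in mutants and 0.167 and 0.264 FPKM in WT at stage I. All 4 mutant libraries lay above all 4 WT libraries, at levels where only 1 library reached 1 FPKM. Without the filter it was called higher in mutants at stage II (log2 0.56 ± 0.11, adjusted p = 0.017) and stage I (0.58 ± 0.11, adjusted p = 0.013). Its paralog hmgcrb (ENSDARG00000105206) held most of the transcript of the pair and differed the other way. The level of hmgcrb was 19.1 and 21.6 FPKM in mutants and 33.5 and 35.1 FPKM in WT at stage II, -0.73 ± 0.12 in log2 (adjusted p = 0.0023). At stage I hmgcrb stood at 8.93 and 9.86 FPKM in mutants and 14.6 and 12.2 FPKM in WT (-0.47 ± 0.12, adjusted p = 0.015). That stage I call of hmgcrb was lost without WT stage I replicate 1 or mutant stage I replicate 1 (adjusted p up to 0.080). The member hmgcra made up 3.62% and 4.74% of the summed FPKM of the pair in mutants and 0.957% and 0.696% in WT at stage II, and 8.28% and 7.82% in mutants and 1.13% and 2.12% in WT at stage I. How the deposited quantification divided reads between the paralogs is not given in the sources used here.

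The isomerase idi1 (ENSDARG00000019976) makes the activated isoprene unit that the later steps join. It stood at 7.85 and 12.6 FPKM in mutants and 12.1 and 12.3 FPKM in WT at stage II, and at 3.88 and 3.47 FPKM in mutants and 5.05 and 2.98 FPKM in WT at stage I. The genotypes overlapped at both stages. Its log2 difference was -0.27 at stage II, with a 95% interval of -0.85 to 0.32 (adjusted p = 0.42), and -0.07 at stage I, with an interval of -0.66 to 0.51 (adjusted p = 0.84). The SE of idi1, 0.25, was the largest of the 7 tested enzymes.

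Squalene synthase, encoded by fdft1 (ENSDARG00000101062), joins farnesyl units into squalene and commits them to sterols. It stood at 6.88 and 9.92 FPKM in mutants and 19.2 and 19.9 FPKM in WT at stage II. At stage I it stood at 13.3 and 16.8 FPKM in mutants and 15.97 and 14.05 FPKM in WT. The mutant stage II libraries were the lowest of all 8, and the genotypes overlapped at stage I. At stage II it averaged 8.40 ± 2.14 FPKM in mutants and 19.5 ± 0.491 FPKM in WT (SD, n = 2 each), a log2 fold change of -1.145 ± 0.18 (adjusted p = 0.0017). This fall kept its call with each library left out in turn (-1.38 to -0.91). At stage I the averages were 15.0 ± 2.47 FPKM in mutants and 15.0 ± 1.36 FPKM in WT (SD, n = 2 each), with a 95% interval of the log2 difference of -0.42 to 0.41 (adjusted p = 0.99). The difference between the stages passed its own test (interaction -1.14 ± 0.25, adjusted p = 0.010). It was the 1 called interaction among the 7 tested enzymes, where 36.4% of all tested genes were called.

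Squalene epoxidase, encoded by sqlea (ENSDARG00000079946), oxidises squalene and is a second control point of the pathway. It stood at 4.67 and 4.31 FPKM in mutants and 0.277 and 0.306 FPKM in WT at stage II, and at 5.75 and 6.74 FPKM in mutants and 0.657 and 0.552 FPKM in WT at stage I. Every mutant library lay above every WT library. Mean FPKM in mutants were 15.4 times those in WT at stage II and 10.3 times at stage I. On the log2 scale the differences were 2.09 ± 0.15 (adjusted p = 4.0e-05) and 2.17 ± 0.15 (adjusted p = 2.7e-05). By size they ranked 377 and 360 among the 13862 genes tested. The gene entered the test through its mutant libraries alone, since no WT library reached 1 FPKM. At least 2 mutant libraries therefore had to lie above every WT library, and its calls support nothing about the set. Left-out libraries moved the values only between 2.04 and 2.14 at stage II and between 2.07 and 2.27 at stage I. Its paralog sqleb (ENSDARG00000063319) was listed at 0 in all 8 libraries.

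Lanosterol synthase, encoded by lss (ENSDARG00000061274), closes the oxidised squalene into the first sterol. It stood at 4.13 and 5.01 FPKM in mutants and 1.29 and 0.752 FPKM in WT at stage II, and at 4.30 and 4.93 FPKM in mutants and 1.55 and 1.15 FPKM in WT at stage I. The lowest mutant library was above the highest WT library. Averages were 4.57 ± 0.620 FPKM in mutants and 1.02 ± 0.380 FPKM in WT at stage II (SD, n = 2 each), a ratio of 4.47. At stage I they were 4.62 ± 0.447 FPKM in mutants and 1.35 ± 0.288 FPKM in WT (SD, n = 2 each), a ratio of 3.42. The log2 differences were 1.47 ± 0.19 (adjusted p = 7.5e-04) and 1.26 ± 0.19 (adjusted p = 0.0014), and both calls held with each library left out in turn.

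For neither sqlea nor lss did the genotype difference differ between the stages by its own test. The interaction was -0.09 for sqlea, with a 95% interval of -0.57 to 0.40 (adjusted p = 0.77), and 0.21 for lss, with an interval of -0.42 to 0.84 (adjusted p = 0.57). Across the 8 libraries the log2 values of the 2 genes correlated at r = 0.974. These 8 points share their groups and libraries, so the value describes the genotype step that both genes show. In the plot of differences both lie to the right of the other enzymes.

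**Figure D2:**
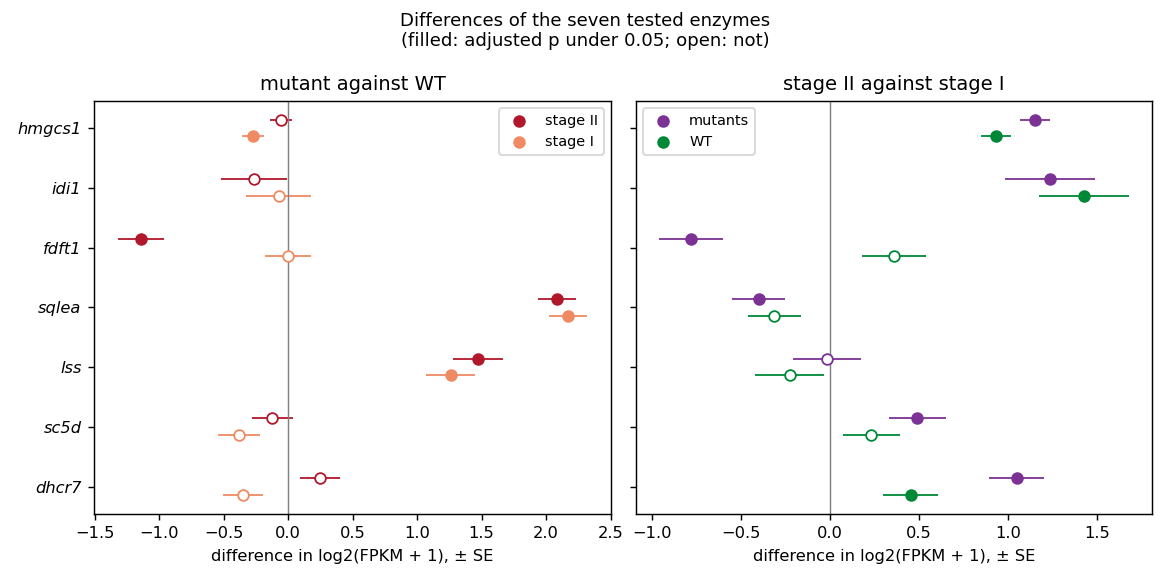
Difference in log2(FPKM + 1) with its SE (horizontal axes) of the 7 tested enzymes, for mutant against WT (left) and stage II against stage I (right). Filled points have an adjusted p under 0.05. In the left panel sqlea and lss lie at 1.26 to 2.17 at both stages and fdft1 at -1.145 at stage II.

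The lanosterol demethylase cyp51 (ENSDARG00000042641) makes a sterol known in mammals as a meiosis-activating sterol. It stood at 0.451 and 0.455 FPKM in mutants and 0.509 and 0.117 FPKM in WT at stage II, and at 0.261 and 0.169 FPKM in mutants and 0.894 and 0.761 FPKM in WT at stage I. No library reached 1 FPKM, and the genotypes overlapped at stage II but not at stage I. Without the filter it was called lower in mutants at stage I (log2 -0.59 ± 0.15, adjusted p = 0.033) and not at stage II (0.16 ± 0.15, adjusted p = 0.49). The interaction in that fit missed the threshold (0.75 ± 0.21, adjusted p = 0.056). The counting error at these levels is unknown, because FPKM carry no counts.

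The last members act on the sterol ring. The desaturase sc5d (ENSDARG00000044642) stood at 8.19 and 8.03 FPKM in mutants and 7.88 and 10.1 FPKM in WT at stage II, and at 5.62 and 5.35 FPKM in mutants and 8.32 and 6.65 FPKM in WT at stage I. The mutant libraries were below WT at stage I and within the WT range at stage II. Neither difference passed (-0.12, 95% interval -0.49 to 0.25, adjusted p = 0.56, and -0.38, interval -0.75 to -0.01, adjusted p = 0.088). The reductase dhcr7 (ENSDARG00000103226), which carries out the final reduction to cholesterol, stood at 5.91 and 6.45 FPKM in mutants and 5.43 and 4.69 FPKM in WT at stage II. At stage I it stood at 2.60 and 2.35 FPKM in mutants and 3.78 and 3.08 FPKM in WT. Mutant libraries were above WT at stage II and below WT at stage I, and neither difference passed (0.25 ± 0.16, adjusted p = 0.23, and -0.35 ± 0.16, adjusted p = 0.10). The interaction of dhcr7 (0.59 ± 0.22, adjusted p = 0.068) missed the threshold and passed without WT stage I replicate 2 (0.71, adjusted p = 0.048).

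The order of the 9 levels within a group also differed. In mutant stage II oocytes hmgcs1 led, followed by idi1, fdft1 and sc5d, which overlapped with their neighbours, then dhcr7, then lss and sqlea, which overlapped, with hmgcra and cyp51 last. In WT stage II oocytes fdft1, idi1, sc5d, dhcr7 and lss followed hmgcs1 without overlap, and cyp51, sqlea and hmgcra overlapped at the bottom. In mutant stage I oocytes sqlea followed hmgcs1 and fdft1. In WT stage I oocytes sqlea stood above hmgcra alone, and idi1 and dhcr7 overlapped. Summed over the 9 enzymes, levels were 86.1 and 96.6 FPKM in mutants and 94.5 and 101 FPKM in WT at stage II, and 56.7 and 62.6 FPKM in mutants and 62.6 and 54.7 FPKM in WT at stage I.

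Relative levels of hmgcs1 and idi1 were higher in stage II than in stage I libraries of both genotypes. In mutants dhcr7 was also higher and fdft1 lower. FPKM are relative to each library, so the amount of transcript per oocyte was not measured. In mutants 4 of the 7 tested enzymes were higher and 2 lower at stage II than at stage I, where 66% of all genes were called (47.3% higher, 18.7% lower). In WT 3 were higher and 0 lower, against 60.3% of all genes (38.1% higher, 22.2% lower). The median of the 7 was 0.49 in mutants and 0.36 in WT, against 0.32 and 0.15 for all tested genes. These medians of all genes depend on the scaling, so stage changes are read against them. They came to 0.00 in mutants and -0.01 in WT after median-of-ratios scaling, which by its design brings them near 0. After that scaling the median of the 7 was 0.13 in mutants and 0.16 in WT, with 3 called higher and 2 lower in mutants, and 2 higher and 1 lower in WT. Of the 13862 genes tested, 8458 were then called in mutants and 8269 in WT. The median of all genes for the interaction was 0.14 as deposited and -0.03 after the same scaling. The share of all calls that were higher was 71.6% in mutants and 63.2% in WT as deposited, and 48.9% in mutants and 50.2% in WT after median-of-ratios scaling. In mutant against WT at stage II the share was 57.0% as deposited and 45.1% after that scaling. For the interaction it was 64.2% as deposited and 47.7% after it. The shares after that scaling rest on medians that the scaling itself sets, so they are a description.

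The stage rise of hmgcs1 was 1.15 ± 0.09 in mutants (adjusted p = 2.6e-05) and 0.93 ± 0.09 in WT (adjusted p = 7.8e-05), and 0.75 in mutants and 0.73 in WT after median-of-ratios scaling. That of idi1 was 1.23 ± 0.25 in mutants (adjusted p = 0.0031) and 1.43 ± 0.25 in WT (adjusted p = 0.0017). After the same scaling idi1 stood at 0.88 in mutants and 1.25 in WT, still past the threshold, and with quantile values at 0.79 in mutants and 1.18 in WT. The reductase dhcr7 rose by 1.05 ± 0.16 in mutants (adjusted p = 5.9e-04), and by 0.66 with quantile values. In WT dhcr7 rose by 0.45 ± 0.16 (adjusted p = 0.035), a call lost under both other scalings and without any 1 library except WT stage I replicate 1 (adjusted p up to 0.15). The desaturase sc5d rose by 0.49 ± 0.16 in mutants (adjusted p = 0.027), a call lost without any 1 mutant library (adjusted p up to 0.11) and under both other scalings, where it stood at 0.13 with median-of-ratios values and 0.03 with quantile values. In WT sc5d was at 0.23 ± 0.16 (adjusted p = 0.24).

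Squalene synthase fell with stage in mutants, by 0.78 ± 0.18 on the log2 scale (adjusted p = 0.0052), and its difference was -1.27 with quantile values. It was at 0.36 ± 0.18 in WT (adjusted p = 0.11). Squalene epoxidase was lower at stage II in mutants (-0.40 ± 0.15, adjusted p = 0.044), a call lost without either mutant stage I, either WT stage II or either mutant stage II library and with the replicate block (adjusted p = 0.066). After median-of-ratios scaling the same difference was -0.74 (adjusted p = 0.0024). In WT sqlea was at -0.31 ± 0.15 (adjusted p = 0.10), which passed after median-of-ratios scaling (-0.37, adjusted p = 0.048). The stage difference of lanosterol synthase did not pass, at -0.02 in mutants (95% interval -0.46 to 0.43, adjusted p = 0.95) and -0.23 in WT (interval -0.67 to 0.22, adjusted p = 0.34). Its direction in mutants turned with a left-out library.

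Across all 8 libraries the log2 values of hmgcs1 correlated with those of idi1 at r = 0.939, dhcr7 at 0.931 and sc5d at 0.825. They correlated with sqlea at -0.314 and lss at -0.231. The search for genes most like a member over the 8 libraries left out other members and genes with clone-style names. They were, for sqlea, gtf2a1l, ndnf and spata18 (r = 0.996, 0.996 and 0.995), and for lss, hdr, cyp2v1 and tuba1a (0.993, 0.989 and 0.986). For idi1 they were etfb, bub1ba and rabl2 (0.986, 0.984 and 0.983), and for dhcr7, stub1, stam2 and nubp1 (0.996, 0.995 and 0.993). For hmgcs1 they were arhgap35a, ncln and hspbp1 (0.999, 0.999 and 0.998), and for fdft1, immp1l, serpinh2 and osgepl1 (0.981, 0.969 and 0.967). The points are 8 libraries in 4 groups, and the values are a description of shared group differences.

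Transcript levels along the whole pathway spanned from 0 to 169 FPKM. Of the 16 other enzyme names looked for, 15 were found and 13 tested. The C-4 dehydrogenase nsdhl stood highest, at 160 and 169 FPKM in mutants and 168 and 165 FPKM in WT at stage II, and at 128 and 123 FPKM in mutants and 149 and 137 FPKM in WT at stage I. The farnesyl synthase fdps and the mevalonate decarboxylase mvda stood between 29.997 and 103 FPKM. The members from squalene epoxidation to lanosterol demethylation, sqlea, lss and cyp51, stood between 0.117 and 6.74 FPKM. The methyl oxidase msmo1 ranged from 0.809 to 6.09 FPKM and the phosphomevalonate kinase pmvk from 0.825 to 5.54 FPKM. The sterol reductase tm7sf2 stayed at or under 1.61 FPKM, while lbr, which carries out the same step, stood between 19.1 and 51.7 FPKM.

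**Figure D3:**
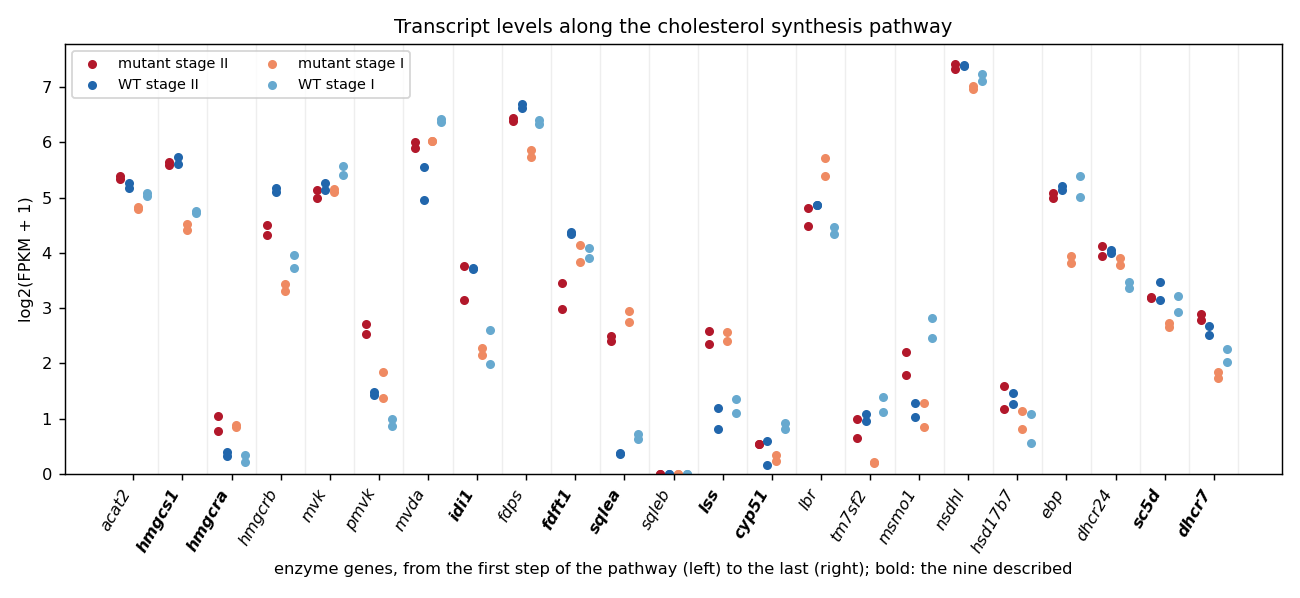
Level as log2(FPKM + 1) (vertical axis) of 23 enzyme genes in order of their step (horizontal axis), with 1 point per library and the 9 described enzymes in bold. The highest points, at up to 169 FPKM, are those of nsdhl, and sqleb is listed at 0 in all libraries.

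Of the 13 other enzymes, 3 were called higher and 2 lower in mutants at stage II, with a median of -0.02, where 44.6% of all tested genes were called. At stage I 3 were called higher and 7 lower, with a median of -0.36, where 45.3% of all tested genes were called (18.4% higher, 26.9% lower). Called with each library left out in turn were 5 of these 10 at stage I (fdps, tm7sf2, lbr, msmo1, ebp) and 2 of these 5 at stage II (hmgcrb, pmvk). The sterol isomerase ebp was at 14.3 and 13.01 FPKM in mutants and 40.8 and 31.2 FPKM in WT at stage I, a fall of 1.32 ± 0.13 on the log2 scale (adjusted p = 1.6e-04). The methyl oxidase msmo1 was at 1.42 and 0.809 FPKM in mutants and 6.09 and 4.49 FPKM in WT at stage I (-1.58 ± 0.23, adjusted p = 0.0011). Both sterol reductases that act after cyp51 differed at stage I, in opposite directions. The nuclear envelope protein lbr was at 41.2 and 51.7 FPKM in mutants and 19.1 and 21.2 FPKM in WT (1.16 ± 0.14, adjusted p = 5.0e-04). Its relative tm7sf2 was at 0.144 and 0.157 FPKM in mutants and 1.19 and 1.61 FPKM in WT (-1.05 ± 0.17, adjusted p = 0.0018). It passed the filter on low values through WT libraries alone, so its fall is a description.

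The kinase pmvk, like sqlea and lss, was higher in mutants at stage II, at 4.80 and 5.54 FPKM in mutants and 1.78 and 1.70 FPKM in WT (1.17 ± 0.19, adjusted p = 0.0020). At stage I it was at 1.59 and 2.57 FPKM in mutants and 0.825 and 0.994 FPKM in WT (0.67 ± 0.19, adjusted p = 0.021), a call lost without WT stage I replicate 1 or mutant stage I replicate 2 (adjusted p up to 0.13). The genotype difference of msmo1 turned between the stages, to 0.84 ± 0.23 at stage II (adjusted p = 0.020), which was lost without WT stage II replicate 2 or mutant stage II replicate 2 (adjusted p up to 0.11). Its interaction was 2.42 ± 0.32 (adjusted p = 0.0013).

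**Figure D4:**
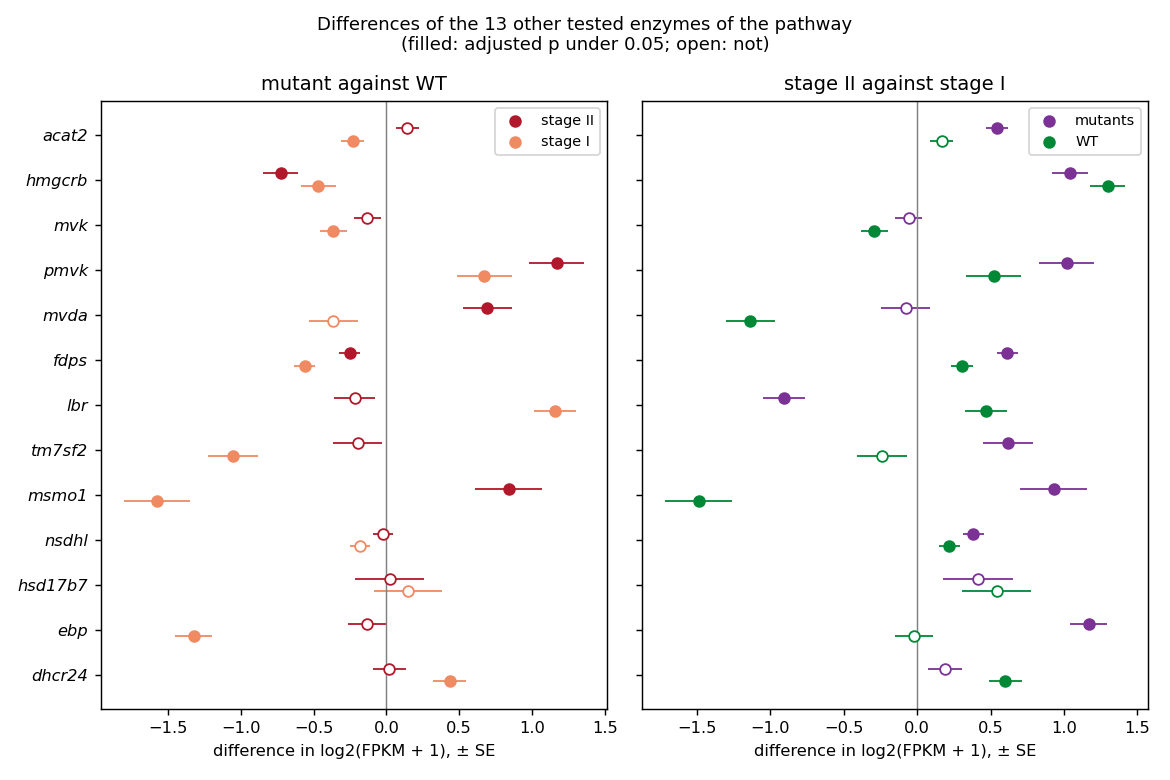
Difference in log2(FPKM + 1) with its SE (horizontal axes) of the 13 other tested enzymes, for mutant against WT (left) and stage II against stage I (right). Filled points have an adjusted p under 0.05. In the left panel ebp and msmo1 lie at -1.32 and -1.58 at stage I and at -0.13 and 0.84 at stage II.

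Regulators of the pathway were compared between stages and genotypes. Of the 17 names of sterol sensing and feedback, 14 genes were tested. Of these 11 were called higher at stage II in mutants and 8 in WT, and 0 lower in either, against 47.3% of all genes called higher in mutants and 38.1% in WT. After median-of-ratios scaling 9 of the 11 calls in mutants were kept, those of scap and insig1 being lost, and the 8 in WT were kept. Between genotypes 4 were called higher and 0 lower in mutants at stage II, and 2 higher and 3 lower at stage I. All genes were called at 44.6% at stage II and 45.3% at stage I. None of the 4 stage II calls held with each library left out in turn, and 3 of them, srebf1, insig1 and amfra, were lost after median-of-ratios scaling. The SREBP-2 gene srebf2 stood at 14.4 and 13.5 FPKM in mutants and 11.1 and 13.5 FPKM in WT at stage II, and at 5.73 and 5.70 FPKM in mutants and 6.03 and 5.25 FPKM in WT at stage I. The genotypes overlapped at both stages, and srebf2 rose with stage by 1.15 ± 0.14 in mutants (adjusted p = 2.0e-04) and 1.00 ± 0.14 in WT (adjusted p = 5.0e-04).

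The ubiquitin ligase gene amfra, whose mammalian counterpart promotes breakdown of HMG-CoA reductase, was at 14.5 and 19.3 FPKM in mutants and 6.41 and 5.37 FPKM in WT at stage I (1.37 ± 0.15, adjusted p = 2.75e-04). The gene rnf145b, whose mammalian relative also acts on that enzyme, was at 22.4 and 26.4 FPKM in mutants and 40.1 and 35.6 FPKM in WT at stage I (-0.62 ± 0.10, adjusted p = 0.0017). The retention gene insig1, itself a known SREBP target in mammals and chosen here after its values were seen, was at 38.1 and 41.1 FPKM in mutants and 32.0 and 31.7 FPKM in WT at stage II. At stage I insig1 was at 25.3 and 27.8 FPKM in mutants and 37.3 and 31.9 FPKM in WT. It was called higher in mutants at stage II (0.31 ± 0.10, adjusted p = 0.038) and lower at stage I (-0.37 ± 0.10, adjusted p = 0.018), and both calls were lost with a left-out library (adjusted p up to 0.18). Its stage II call was lost without any 1 of the stage II libraries and its stage I call without replicate 1 of either genotype at stage I. The interaction of insig1 was 0.67 ± 0.14 (adjusted p = 0.0084).

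Genes of cholesterol uptake, transport and storage, of which 12 were tested, included the highest levels of the pathway lists. In mutants 5 were called higher and 1 lower at stage II, and 3 higher and 1 lower at stage I, against 44.6% and 45.3% of all genes called in either direction. With each library left out in turn, 3 of these 6 stage II calls held (ldlrap1a, npc2, scarb1). At stage I 3 of these 4 held (apoeb, scarb1, nr1h3). The lysosomal cholesterol carrier npc2 was at 537 and 580 FPKM in mutants and 342 and 298 FPKM in WT at stage II (0.80 ± 0.10, adjusted p = 6.5e-04). The lipoprotein receptor gene scarb1, named after its values were seen, stood at 551 and 527 FPKM in mutants and 399 and 406 FPKM in WT at stage II, and at 544 and 560 FPKM in mutants and 416 and 387 FPKM in WT at stage I. Every mutant library was above every WT library, with log2 differences of 0.42 ± 0.07 (adjusted p = 0.0021) and 0.46 ± 0.07 (adjusted p = 0.0012).

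The apolipoprotein gene apoeb was at 5.10 and 5.88 FPKM in mutants and 0.777 and 0.853 FPKM in WT at stage II, and at 19.2 and 6.44 FPKM in mutants and 2.03 and 0.983 FPKM in WT at stage I. Its differences were 1.84 ± 0.42 (adjusted p = 0.0097) and 2.32 ± 0.42 (adjusted p = 0.0031), and the stage II call was lost without WT stage II replicate 1 (adjusted p = 0.051). Of the WT libraries 1 reached 1 FPKM of apoeb, which passed the filter mainly through mutants. The oxysterol receptor gene nr1h3 fell in mutants at stage I, to 2.24 and 2.26 FPKM against 5.34 and 4.06 FPKM in WT (-0.80 ± 0.15, adjusted p = 0.0035).

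The side branches that draw on the same isoprenoids, had 12 genes tested. In mutants 1 was called higher and 3 lower at stage II, where 44.6% of all genes were called. At stage I 2 were called higher and 8 lower, where 18.4% of all genes were called higher and 26.9% lower. With each library left out in turn, 3 of these 4 stage II calls and 8 of these 10 stage I calls held. The prenyltransferase subunit gene fnta was at 33.1 and 34.1 FPKM in mutants and 54.2 and 52.3 FPKM in WT at stage I (-0.65 ± 0.09, adjusted p = 7.4e-04). In stage II oocytes fnta was at 82.4 and 78.3 FPKM in mutants and 71.2 and 83.2 FPKM in WT, which overlapped, and its interaction was 0.71 ± 0.12 (adjusted p = 0.0040). The gene pdss2, for a subunit that makes the ubiquinone tail, was at 25.7 and 30.7 FPKM in mutants and 42.4 and 42.2 FPKM in WT at stage II, and at 14.5 and 15.9 FPKM in mutants and 30.3 and 27.1 FPKM in WT at stage I. It fell by 0.57 ± 0.11 at stage II (adjusted p = 0.0043) and by 0.87 ± 0.11 at stage I (adjusted p = 5.2e-04) on the log2 scale.

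Some markers of other cells moved in the direction of sqlea, lss and hmgcra and others did not. Of the 12 leukocyte markers 6 were tested, and 4 of these were called higher and 0 lower in mutants at each stage, against 25.4% of all genes called higher at stage II and 18.4% at stage I. Of the 4, coro1a and cd4-1 passed the filter on low values through mutant libraries alone, and cd74a reached 1 FPKM in 1 WT library, so their direction is a description. Not called at either stage were rac2, at 26.0 to 32.0 FPKM over all libraries, and the lysozyme gene lyz. In stage II libraries lyz was listed at 0 in both mutants and stood at 0.584 and 0.460 FPKM in WT, and in stage I libraries it was at 1.90 and 1.43 FPKM in mutants and 0.413 and 1.41 FPKM in WT. Of the 4 called genes, cd74a and cd74b at stage II lost their call without WT stage II replicate 1 or mutant stage II replicate 2 (adjusted p up to 0.097). At stage I coro1a lost its call without replicate 2 of either genotype at that stage (adjusted p up to 0.15), and cd4-1 without WT stage I replicate 1 or mutant stage I replicate 2 (adjusted p up to 0.092). The whole leukocyte list summed to 37.1 and 44.7 FPKM in mutants and 28.6 and 29.7 FPKM in WT at stage II, and to 42.1 and 40.1 FPKM in mutants and 30.8 and 31.6 FPKM in WT at stage I. Summed without rac2, the highest of the list, it came to 9.16 and 12.7 FPKM in mutants and 1.81 and 3.17 FPKM in WT at stage II. At stage I that sum was 16.2 and 13.7 FPKM in mutants and 4.01 and 4.93 FPKM in WT. The macrophage gene mpeg1.1 was listed at 0 in all libraries, and the pan-leukocyte gene ptprc stayed at or under 0.238 FPKM.

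Of the 12 granulosa and theca markers 7 stayed under 1 FPKM in every library and 4 were tested. In mutants 2 were called higher and 1 lower at stage II, and 1 higher and 2 lower at stage I. All genes were called at 44.6% at stage II and 45.3% at stage I. Among the lower ones were gsdf at stage II (log2 -1.15, adjusted p = 0.031) and foxl2b at stage I (-0.60, adjusted p = 0.030). Both of these calls were lost with a left-out library. The other lower call at stage I, that of cyp11a1 (log2 -7.59, adjusted p = 1.4e-07), held with each library left out. At stage II cyp11a1 was called higher in mutants (log2 2.00, adjusted p = 1.1e-04). The steroid enzyme gene cyp11a1 was at 278 and 261 FPKM in mutants and 53.5 and 82.4 FPKM in WT at stage II, and at 0.153 and 0.0626 FPKM in mutants and 221 and 203 FPKM in WT at stage I. The whole list summed to 354.6 and 335.5 FPKM in mutants and 95.2 and 124 FPKM in WT at stage II, and to 103 and 108 FPKM in mutants and 275 and 254 FPKM in WT at stage I. Without cyp11a1 the sum was 76.3 and 75.0 FPKM in mutants and 41.7 and 41.3 FPKM in WT at stage II, and 103 and 108 FPKM in mutants and 53.8 and 51.5 FPKM in WT at stage I, so the direction at stage I turned when that gene was left out. Most of what remained was cyp17a1, which was called higher in mutants at both stages.

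Of the blood markers, 2 were tested, with 2 called higher in mutants at stage II and 1 at stage I. Of all tested genes 25.4% were called higher and 19.2% lower at stage II, and 18.4% higher and 26.9% lower at stage I. The red cell anion exchanger gene slc4a1a was at 1.19 and 0.785 FPKM in mutants and 0.0406 and 0.0895 FPKM in WT at stage II, and at 1.17 and 1.18 FPKM in mutants and 0.325 and 0.386 FPKM in WT at stage I. It also passed the filter through mutant libraries alone. The blood list summed to 4.38 and 6.26 FPKM in mutants and 1.58 and 0.623 FPKM in WT at stage II, and to 3.00 and 5.52 FPKM in mutants and 2.46 and 2.57 FPKM in WT at stage I. Without its highest gene it came to 2.02 and 4.12 FPKM in mutants and 1.24 and 0.423 FPKM in WT at stage II. At stage I that sum was 2.27 and 2.78 FPKM in mutants and 0.866 and 2.03 FPKM in WT. Of the stroma and endothelium markers, 7 were tested, to be read against the same shares of all genes. In mutants 3 were called higher (fn1a, krt8, krt18a.1) and 2 lower (col1a1a, kdrl) at stage II, and 1 higher (fn1a) and 1 lower (krt8) at stage I. The genes krt8 and krt18a.1 are keratin genes of epithelia, so their calls do not stand for stroma or endothelium. Of these, fn1a passed the filter through mutant libraries alone, and col1a1a and kdrl through WT libraries alone. That list summed to 16.4 and 23.8 FPKM in mutants and 12.5 and 13.8 FPKM in WT at stage II, and to 27.5 and 27.6 FPKM in mutants and 31.9 and 27.0 FPKM in WT at stage I. Without its highest gene it came to 10.1 and 12.3 FPKM in mutants and 9.24 and 10 FPKM in WT at stage II. At stage I that sum was 12.45 and 11.6 FPKM in mutants and 13.8 and 11.2 FPKM in WT. Calls of the blood list and of this list were not recomputed in the other settings. The part of other cells in the levels of sqlea, lss and hmgcra was not tested, and in bulk samples fewer cells of a type and less RNA per cell cannot be told apart.

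The 9 enzyme genes lie on 9 different chromosomes in the gene table of the GRCz12tu assembly, which is not the build of the reads and is used here for gene order alone. The nearest tested protein-coding gene on each side gave 18 neighbours, chosen after values were seen, of which 9 were called between genotypes at stage II and 8 at stage I, against 44.6% and 45.3% of all tested genes. Beside sqlea, the ubiquitin ligase gene rnf144b was at 17.2 and 16.3 FPKM in mutants and 25.9 and 33.4 FPKM in WT at stage II, and at 5.34 and 4.82 FPKM in mutants and 15.7 and 13.5 FPKM in WT at stage I. Its log2 differences were -0.78 ± 0.14 at stage II (adjusted p = 0.0038) and -1.36 ± 0.14 at stage I (adjusted p = 2.5e-04). Beside lss, mcm3ap was at 10.9 and 10.05 FPKM in mutants and 6.71 and 8.05 FPKM in WT at stage II, and at 5.51 and 5.30 FPKM in mutants and 3.30 and 2.57 FPKM in WT at stage I. The stage I difference of mcm3ap was 0.71 ± 0.16 (adjusted p = 0.0075). That of stage II was 0.46 ± 0.16 (adjusted p = 0.044), a call lost without any 1 of the 4 stage II or 2 mutant stage I libraries (adjusted p up to 0.20). On the other side of lss, osbpl11 was not called at either stage. Its differences were 0.15 ± 0.19 at stage II (adjusted p = 0.57) and -0.25 ± 0.19 at stage I (adjusted p = 0.33).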

How the data were processed

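Gene expression in 8 oocyte libraries was taken from 1 merged table of FPKM values deposited by the authors. Another 3 libraries of the series, from CUT&Tag, were not analysed here. The submitters' processing notes name Trim Galore, STAR 2.5.3a, Cufflinks 2.2.1 and the genome build danRer11, and the annotation is not given in the sources used here. Of 32197 entries, 24 that repeated another exactly were dropped. A further 103 gene IDs had entries with different values and were left out. None of these was in a list used here, and 31952 IDs remained. The 13862 genes that reached 1 FPKM in 2 or more libraries entered limma 3.58.1 in R 4.3.3 on log2(FPKM + 1), as 4 group means, with an intensity trend in eBayes (residual df 4, prior df 3.78). The code was tested on simulated data.

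The members and lists were chosen with earlier results of these data known. All 9 members and their paralogs are named. From each pathway list the rule takes up to 8 called genes of largest change. The genes acat2, nsdhl, insig1, scarb1, srebf1, scap, ldlrap1a, stard3 and rabggtb fall outside it and were chosen after values were seen. For members spanning 1 log2 unit or more, the 3 genes of highest Pearson r were found. Members and genes with a clone-style name or no name were left out of that search. Settings varied were the pseudocount (0.1 or 5), the filter (absent, or a mean of 5 FPKM), the scaling (quantile or median-of-ratios), a replicate block, the libraries in the fit and each library left out.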

Additional observations from a re-analysis of the deposited data

Results flagged for a closer look

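Among the tested enzymes of the pathway, 8 had a genotype difference that differed between the stages by the interaction test in limma (adjusted p under 0.05). They were 1 of the 7 tested members and 7 of the 13 other tested enzymes. For fdft1 the interaction, stage II minus stage I, was -1.14 ± 0.25 (adjusted p = 0.010). For msmo1 it was 2.42 (adjusted p = 0.0013), for ebp 1.19 (adjusted p = 0.0022), for mvda 1.06 (adjusted p = 0.011) and for lbr -1.38 (adjusted p = 0.0019). These 5 calls held with each library left out in turn. For tm7sf2 the interaction was 0.86 (adjusted p = 0.027), for acat2 0.38 (adjusted p = 0.030) and for fdps 0.31 (adjusted p = 0.049). Since tm7sf2 passed the filter on low values through WT libraries alone, its value is a description. The tm7sf2 call was lost without any 1 of 5 libraries (adjusted p up to 0.079), that of acat2 without any 1 of 6 (adjusted p up to 0.10) and that of fdps without any 1 of 7 (adjusted p up to 0.14). The calls of acat2 and fdps were also lost under both other scalings. Over all settings that of acat2 was lost in 8 of 15 and that of fdps in 12 of 15. Of all tested genes 36.4% had a called interaction, so the count of 8 is a description.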

How the results depend on the processing

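The calls of sqlea and lss in mutants at both stages, of fdft1 at stage II and of its interaction held under every setting in which each gene was tested. The filter of a mean of at least 5 FPKM left out sqlea and lss, so it did not test their calls. As sqlea entered the main test through its mutant libraries alone, its calls are a description. Of 538 recomputed values of the 7 members, 481 kept direction and call, 35 lost a call, 4 gained 1 and 18 changed direction. Many of the 538 belong to results uncalled in the main fit, which had no call to lose. The losses fell on hmgcs1 between genotypes at stage I (8 settings) and the stage difference of dhcr7 in WT (11). The others were the stage differences in mutants of sqlea (10) and sc5d (6). Without the filter 5 members of 9 were called at stage I, and with a mean of at least 5 FPKM 1 of 4 at stage I and 1 of 4 at stage II, with fewer genes tested. The 5 include hmgcra and cyp51, which the filter left out. The share of all genes called was not worked out for these filters, so the counts are a description. With each library left out, the interaction was called for 1 to 2 members. Every member value that changed direction was uncalled in both settings, and the cause was not tested. After quantile normalization the stage I difference of idi1 was 0.020 and of fdft1 0.097, the WT stage difference of sc5d -0.030 and the interaction of lss -0.12. After median-of-ratios scaling fdft1 at stage I was 0.072 and the interaction of lss -0.020. With a pseudocount of 0.1 the interaction of sqlea was 0.38. With libraries left out, the mutant against WT difference ranged from -0.37 to 0.23 for idi1 and -0.16 to 0.15 for fdft1 at stage I. At stage II it ranged from -0.13 to 0.015 for hmgcs1, -0.58 to 0.045 for idi1 and -0.28 to 0.038 for sc5d. The stage difference of lss in mutants ranged from -0.13 to 0.10, and the interaction from -0.50 to 0.12 for idi1 and from -0.18 to 0.013 for sqlea. Among other genes, the stage difference in mutants turned after median-of-ratios scaling for nsdhl (-0.026), ldlrap1a (-0.22, adjusted p = 0.043 in this opposite direction), stard3 (-0.13) and rabggtb (-0.085), and after quantile normalization for stard3 (-0.096). Whether the replicate numbers pair the samples is not given in the sources used here, and the main fit did not pair them. The deviations of same-numbered libraries correlated between -0.041 and 0.065. These values show no shared deviation across tested genes and cannot tell where the libraries came from. With the replicate number as a block 7 of 191 results lost their call, 1 of them among the members, the stage difference of sqlea in mutants (-0.40, adjusted p = 0.066). The 191 include the counts of members called and results uncalled in the main fit, which had no call to lose. With 2 libraries a group and unknown depth, small differences and levels under 1 FPKM are poorly resolved.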
